A study of Mus musculus with 6 samples.

Results

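The nuclear genes for subunits of the mitochondrial respiratory chain and of ATP synthase were examined in embryonic mouse kidneys with and without the Wnt and Norrin receptor Fz4. Members were taken by gene symbol from the array's annotation (Nduf, Sdh, Uqcr, Cox4 to Cox8 and Atp5 genes, without assembly factors), using probe sets that name 1 gene. Where a gene had several probe sets, the one with the highest mean over all arrays stood for it. This gave 80 of the 18193 genes with such a probe set: 34 of complex I, 4 of complex II, 8 of complex III, 17 of complex IV and 17 of complex V.

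Whole kidneys were taken at E13.5, an early stage of nephron formation, from Fz4-/- embryos (3 samples) and Fz4+/+ embryos (3 samples). There were 3 litters, each with a sample of both genotypes, and the labels give the genotype and litter of every array. All samples are total RNA of the whole organ, read on Affymetrix mouse arrays as 1 log2 signal per probe set. The null allele is present in every cell of the Fz4-/- embryos, and the labels name no strain and do not say how many embryos went into a sample. P-values thus measure the spread between these samples.

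The respiratory chain passes electrons from NADH (complex I) and succinate (complex II) through ubiquinone, complex III and cytochrome c to oxygen at complex IV. Complexes I, III and IV pump protons, and ATP synthase, complex V, uses the gradient to make ATP. Complex II pumps no protons and is also an enzyme of the citric acid cycle. Several subunits of complex IV exist as isoforms that replace each other by tissue, with forms known from heart and skeletal muscle, from testis and from lung. The proximal tubule of the mature kidney relies on this chain, whereas nephron progenitors are known for their use of glycolysis.

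Kidney markers were present on every array, with a mean of 9.66 to 9.69 log2 over 13 genes in Fz4-/- samples and 9.52 to 9.72 in Fz4+/+ samples. Fzd4, the gene of Fz4, read 4.37, 3.58 and 6.22 in the Fz4-/- samples of litters 1 to 3, against 11.21, 11.12 and 10.31 in the Fz4+/+ samples, on its brightest probe set. For actin, the 3' probe set exceeded the 5' one, a measure of RNA degradation, by 0.64 to 0.86 log2 in Fz4-/- samples and by 0.76 to 0.90 in Fz4+/+ samples, with an exact permutation p of 0.4. In tissue of mixed cells, fewer cells of a type and less RNA per cell cannot be told apart.

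Promoters of 65 members were found among RefSeq promoters of GRCm38.p6, windows around the start of each gene. Binding sequences of NRF1, of ETS factors such as GABP, and of YY1 are known from many promoters of this group. They were searched on both strands as CGCANGCGC for NRF1, CCGGAAGT for ETS factors and AAGATGGC for YY1, with N for any base, and each start position counted, so that matches can overlap. Some genes, such as Atp5c1, have 2 windows, and a gene was counted when any of its windows held the letters. The NRF1 letters were found for 22 of the 65 members (33.8%), against 15.2% of tested genes with a promoter and 7.12% of all genes with one. The YY1 letters were found for 9 (13.8%), against 5.18% of these tested genes and 3.19% of all these genes. The ETS letters were found for 5 (7.69%), against 8.76% and 4.31%. By complex, 9 of 15 genes of complex V, 3 of 5 of complex III, 2 of 3 of complex II and 7 of 30 of complex I held the NRF1 letters, whereas 1 of 12 of complex IV did. Of the tissue isoforms, 4 had a promoter in the table, and 0 of them held any of the 3 motifs. A match is a string of letters and does not show binding.

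For each complex, the promoter with the most NRF1 matches among the tested members is shown. In complex V Atp5g2 was tied with Atp5k and is shown because its values are described further on. Cox6b2, the member with the widest difference between the genotypes on the probe set that stands for each gene, follows. Bases in capitals mark the motif matches, 5′ to 3′ in the direction of the gene.
Ndufa8, chr2:36049289-36049588 (minus strand): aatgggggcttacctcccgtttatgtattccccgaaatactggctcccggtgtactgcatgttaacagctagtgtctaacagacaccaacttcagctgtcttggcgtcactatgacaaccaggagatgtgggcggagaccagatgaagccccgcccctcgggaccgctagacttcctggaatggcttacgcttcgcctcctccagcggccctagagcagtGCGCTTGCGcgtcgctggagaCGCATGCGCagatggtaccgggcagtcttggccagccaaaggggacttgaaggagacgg
Sdha, chr13:74350191-74350490 (minus strand): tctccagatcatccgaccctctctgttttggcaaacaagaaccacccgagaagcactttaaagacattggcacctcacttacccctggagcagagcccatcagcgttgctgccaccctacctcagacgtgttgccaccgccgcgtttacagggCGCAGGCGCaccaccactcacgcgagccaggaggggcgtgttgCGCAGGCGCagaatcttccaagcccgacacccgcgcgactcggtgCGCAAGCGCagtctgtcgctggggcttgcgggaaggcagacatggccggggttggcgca
Uqcrc1, chr9:108936398-108936697 (plus strand): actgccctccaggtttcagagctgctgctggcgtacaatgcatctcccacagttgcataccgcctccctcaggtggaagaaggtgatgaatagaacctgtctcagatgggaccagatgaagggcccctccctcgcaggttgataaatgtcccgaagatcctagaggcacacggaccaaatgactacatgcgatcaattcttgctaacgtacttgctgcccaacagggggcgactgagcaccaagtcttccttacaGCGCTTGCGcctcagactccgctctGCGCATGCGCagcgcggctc
Cox6a1, chr5:115348909-115349208 (minus strand): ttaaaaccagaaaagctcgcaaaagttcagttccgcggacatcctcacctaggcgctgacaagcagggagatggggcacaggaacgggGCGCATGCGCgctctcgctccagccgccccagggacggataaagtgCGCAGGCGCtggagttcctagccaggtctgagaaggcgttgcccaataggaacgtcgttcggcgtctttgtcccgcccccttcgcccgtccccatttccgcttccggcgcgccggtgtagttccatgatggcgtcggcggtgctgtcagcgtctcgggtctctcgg
Atp5g2, chr15:102670998-102671297 (minus strand): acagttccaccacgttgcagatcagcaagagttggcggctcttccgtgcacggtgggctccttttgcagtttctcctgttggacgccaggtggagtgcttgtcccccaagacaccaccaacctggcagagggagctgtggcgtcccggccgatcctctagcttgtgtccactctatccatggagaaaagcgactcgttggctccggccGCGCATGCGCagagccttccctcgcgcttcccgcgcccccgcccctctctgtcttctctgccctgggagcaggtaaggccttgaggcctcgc
Cox6b2, chr7:4753045-4753344 (minus strand): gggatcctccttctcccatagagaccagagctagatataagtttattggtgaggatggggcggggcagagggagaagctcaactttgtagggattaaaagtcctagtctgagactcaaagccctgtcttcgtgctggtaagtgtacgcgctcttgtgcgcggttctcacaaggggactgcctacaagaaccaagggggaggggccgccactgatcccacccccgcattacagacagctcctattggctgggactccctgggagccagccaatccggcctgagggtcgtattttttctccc
The NRF1 letters were found at 3 start positions each in Sdha, Uqcrc1 and Cox6a1, and at 2 each in Ndufa8 and Atp5g2. Cox6b2 has no capitals, so none of the 3 motifs is in its window.

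The members were among the brighter probe sets of the array. Of the 80 members, 75 had a mean at or above 5.89 log2, the 40th percentile of all probe sets, and were tested, and 70 had a mean of at least 10. Of all 18193 genes, also taken by their brightest probe set, 12538 were tested, and 4501 of these had a mean of at least 10. Signals of different probe sets cannot be ranked against each other as amounts of RNA, since their probes bind with different strength. In complex I the brightest probe sets of the genes averaged from 4.76 for Ndufb4 to 13.04 for Ndufb11, in complex II from 11.12 to 11.88, in complex III from 10.69 to 13.10, in complex IV from 5.20 to 13.49 and in complex V from 11.78 to 13.47. The 5 members below the filter were Ndufb4 and the complex IV isoforms Cox7a1, Cox7b2, Cox8b and Cox8c. For Ndufb4, which encodes an accessory subunit of complex I, brighter probe sets carry the names of several genes and were left out by the rule.

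Whether loss of Fz4 changes the RNA of the respiratory chain was asked gene by gene. No member differed between the genotypes past the threshold, and most differences were very small. limma called 0 of the 75 tested members at an adjusted p under 0.05, as it called 0% of all 27028 tested probe sets, with 1 member and 0.884% of probe sets at an unadjusted p under 0.05. Its adjusted p was 0.999988 for each of the 75. It was also 0.999988 for Fzd4 itself, at differences of -6.16 and -3.44 log2 on 2 probe sets and unadjusted limma p of 9.57e-05 and 5.97e-05. The count of 0 thus includes the deleted gene, and a missed threshold does not show that a member was unchanged. The share of probe sets at an unadjusted p under 0.05 was 3.11% with the litter as a block and 22.5% with array weights, and lay between 0.459% and 6.39% with 1 sample left out. The 6.39% came on dropping the Fz4+/+ array of litter 3, and the 0.459% on dropping the Fz4-/- array of litter 2. The median difference over the 75 members was 0.033 log2, against 0.034 over all 12538 tested genes. The difference was at most 0.1 log2 in size for 66 of the 75 members (88.0%), against 60.3% of all tested genes and 82.7% of the 4501 tested genes with a mean of at least 10. The 95% interval of the difference lay within 0.5 log2 on either side of 0 for 64 members. It reached further for Ndufa4l2, Ndufb1, Ndufb2, Ndufs5, Ndufv1, Ndufv3, Cox4i2, Cox6a2, Cox6b2, Cox7a2l and Cox7c. With the litter as a block, 69 members lay within that bound, and 6 reached further, namely Ndufa4l2, Ndufb1, Ndufb2, Cox6a2, Cox6b2 and Cox7a2l. For Ndufs5 the interval was -0.24 to 0.28 with the block, against -0.58 to 0.62 without it.

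**Figure D1:**
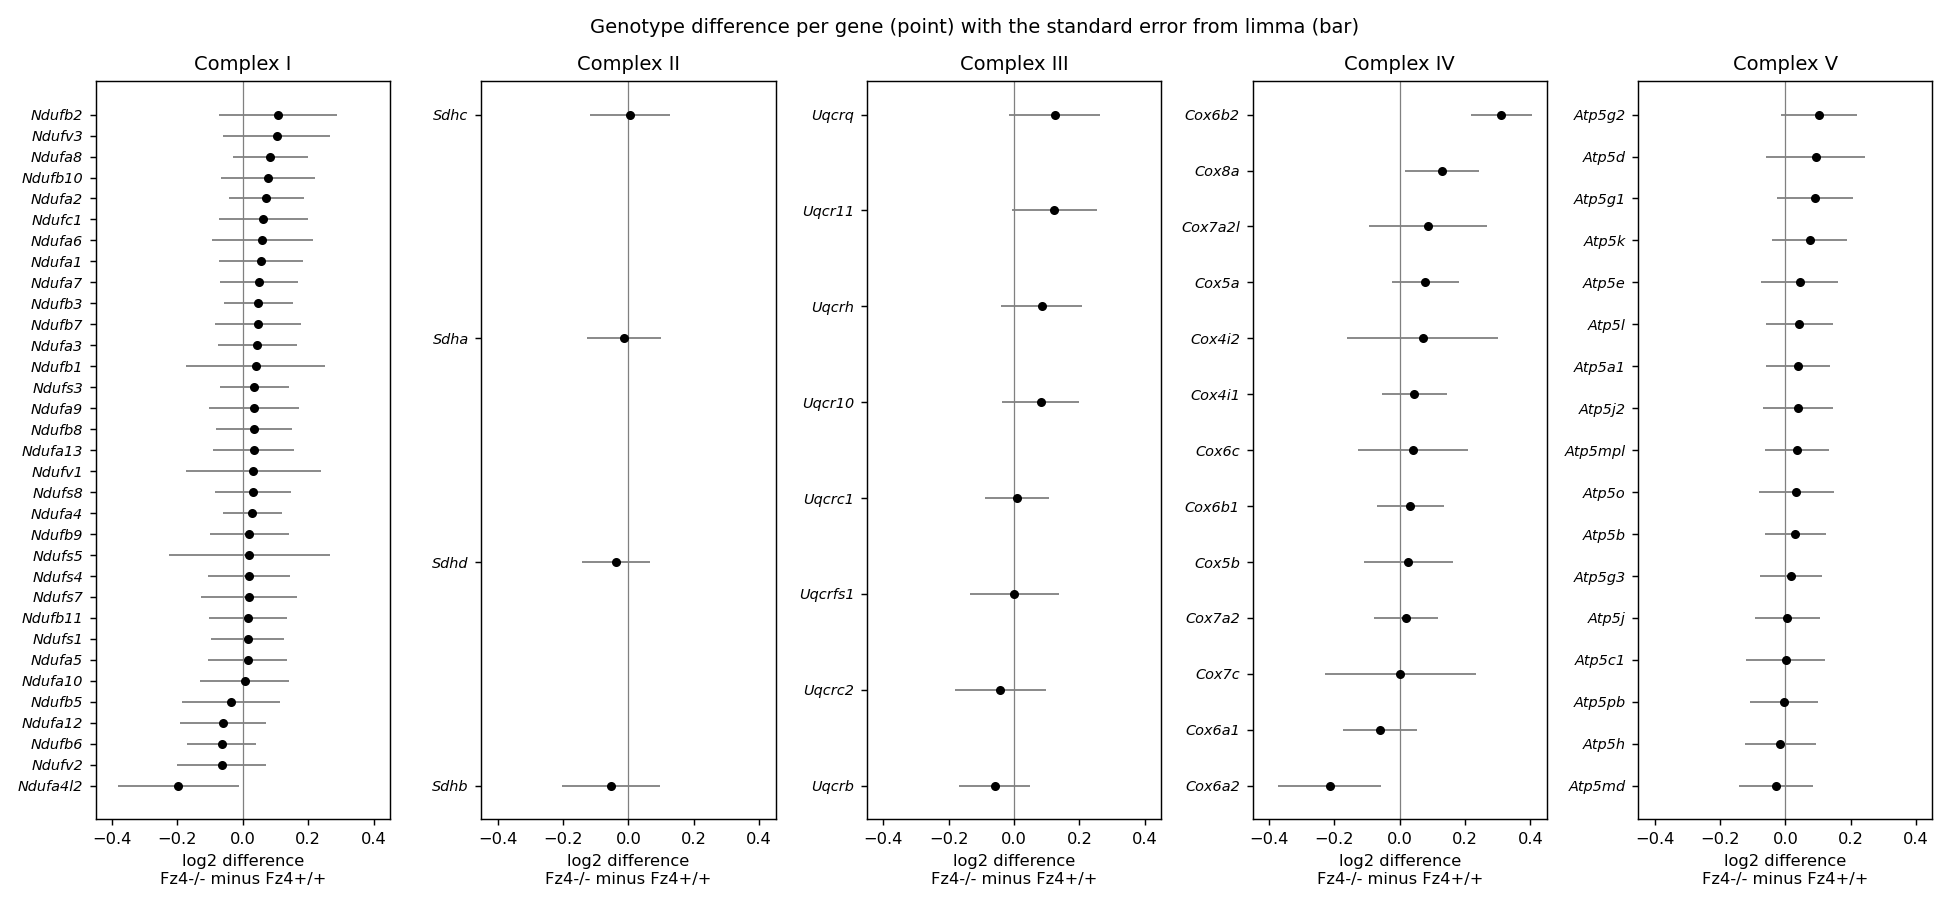
Difference of each tested member on the log2 scale, Fz4-/- minus Fz4+/+ (horizontal axis), by complex, with points for the difference and bars for limma's standard error. Of the 75 genes 60 lie right of 0, Cox6b2 at 0.31 lies farthest right, and Cox6a2 at -0.21 and Ndufa4l2 at -0.20 lie farthest left.

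Cox6b2, the testis form of a small subunit of complex IV, was the one member whose values did not overlap between the genotypes. It read 10.55, 10.44 and 10.49 in the Fz4-/- samples of litters 1 to 3, against 10.22, 10.18 and 10.16 in the Fz4+/+ samples. Every Fz4-/- value lay above every Fz4+/+ value, and the litters differed little. The means were 10.50 ± 0.05 in Fz4-/- and 10.18 ± 0.03 in Fz4+/+ kidneys (SD, n = 3 each), a difference of 0.31 ± 0.09 (SE), which is 1.24-fold. The difference was 0.33, 0.27 and 0.33 in litters 1 to 3. limma's unadjusted p was 0.0161 and its adjusted p over all probe sets 0.999988, so the gene did not pass. Its unadjusted limma p was no longer under 0.05 without the Fz4-/- sample of litter 1 or without litter 3. Over all tested probe sets 2.43% were higher in Fz4-/- without overlap and 1.21% lower, and among tested genes with a mean of at least 10 the share higher was 3.09%, against 1 and 0 of the 75 members. Leaving out 1 sample at a time gave differences from 0.28 to 0.34. Cox6b2 has 1 probe set on the array and lies on chromosome 7, as does Fzd4. Other members on chromosome 7 include Ndufa3 and Cox6b1, which differed by 0.04 and 0.03 log2, and Cox7a1 and Cox8b, which were under the filter. Whether the place on the chromosome plays a part was not tested. Cox6b1, the widespread partner of Cox6b2, read 13.36, 13.35 and 13.42 in Fz4-/- samples, against 13.34, 13.25 and 13.45 in Fz4+/+ samples. Its genotypes overlapped.

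The other tissue forms of complex IV were read at low signal, and their genotypes overlapped. Cox6a2, the heart and skeletal muscle form, read 7.43, 7.03 and 7.25 in the Fz4-/- samples of litters 1 to 3, against 7.32, 7.67 and 7.36 in the Fz4+/+ samples, a difference of -0.21 ± 0.16 (SE). Its lowest value was in the Fz4-/- sample of litter 2 and its highest in the Fz4+/+ sample of the same litter. The mean of 21 striated muscle markers was also lowest in that Fz4-/- sample, at 6.21 log2, and highest in that Fz4+/+ sample, at 8.08. The marker means of the remaining samples were 7.40 and 7.47 in Fz4-/- and 7.53 and 7.37 in Fz4+/+ samples. Of the 21 muscle markers 19 were below 0 in the difference, and 2 more (Ckm and Chrna1) were under the filter. The part of muscle cells in the Cox6a2 values was not tested.

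Cox8b, another muscle form, read 5.35, 5.18 and 5.16 in Fz4-/- samples, against 5.09, 5.51 and 5.28 in Fz4+/+ samples, with its highest value again in the Fz4+/+ sample of litter 2. Cox7a1, the muscle form of its subunit, read 4.89, 5.08 and 5.82 in Fz4-/- samples, against 4.86, 4.79 and 5.76 in Fz4+/+ samples. Both samples of litter 3 were highest, and unlike Cox6a2 and Cox8b it was lowest in the Fz4+/+ sample of litter 2. The testis form Cox7b2 varied over 2.05 log2, at 6.81, 5.23 and 4.77 in Fz4-/- samples and 5.56, 6.51 and 4.88 in Fz4+/+ samples. The testis form Cox8c read 5.89, 5.79 and 5.52 in Fz4-/- samples, against 5.95, 6.05 and 5.75 in Fz4+/+ samples. Cox8b, Cox7a1, Cox7b2 and Cox8c were under the filter and were not tested. Cox4i2, the form known from lung and induced by low oxygen, read 6.51, 6.47 and 6.80 in Fz4-/- samples, against 6.69, 6.05 and 6.83 in Fz4+/+ samples. Its difference of 0.07 ± 0.23 (SE) was smaller than its error.

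**Figure D2:**
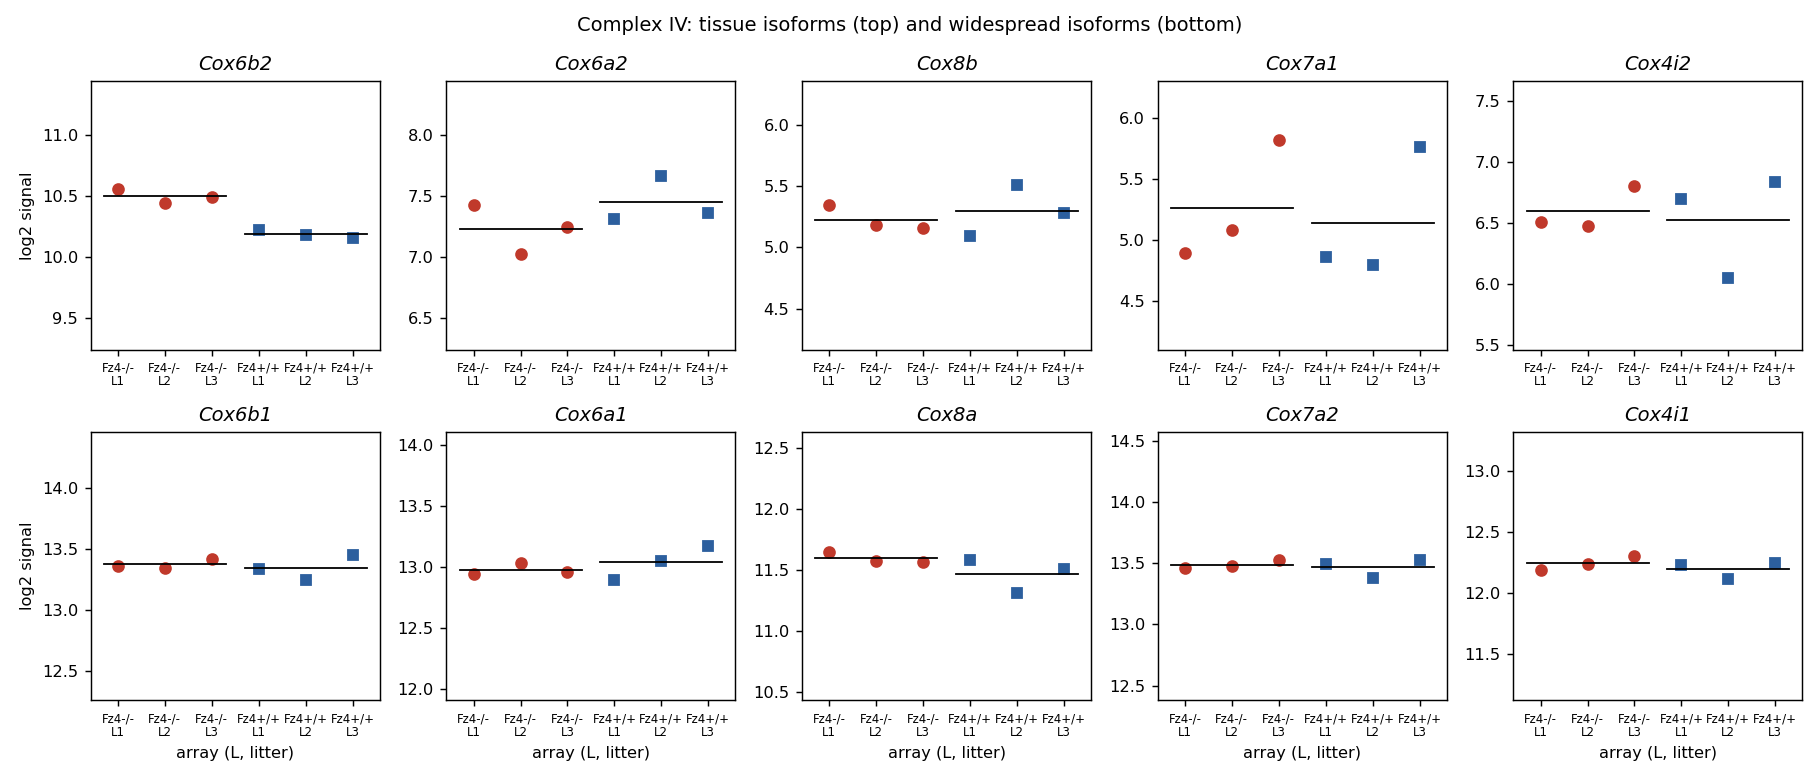
Log2 signal of 5 tissue isoforms of complex IV (top row) and their widespread partners (bottom row) on each array (horizontal axis: 3 Fz4-/- arrays as red circles, then 3 Fz4+/+ arrays as blue squares, L for litter), with black lines at the genotype means. All panels span the same range of signal. Cox6b2 is separated by genotype, Cox6a2 and Cox8b are highest in the Fz4+/+ sample of litter 2, and Cox7a1 and Cox4i2 are lowest there.

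The widespread forms of the same subunits were bright, and only Cox8a differed by more than 0.1 log2 among Cox4i1, Cox6a1, Cox6b1, Cox7a2 and Cox8a. Cox8a read 11.65, 11.58 and 11.57 in Fz4-/- samples, against 11.58, 11.31 and 11.51 in Fz4+/+ samples. Its genotypes overlapped, at a difference of 0.13 ± 0.11 (SE) and an unadjusted limma p of 0.296. Cox4i1 differed by 0.04, Cox6a1 by -0.06 and Cox7a2 by 0.02. Cox7a2l, which joins complexes III and IV into supercomplexes, read 11.65, 11.86 and 11.97 in Fz4-/- samples, against 11.92, 11.41 and 11.90 in Fz4+/+ samples. Its spread within each genotype was larger than its difference of 0.09. Cox5a and Cox5b, subunits found in all tissues, differed by 0.08 and 0.03.

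In complex I the core subunits carry the flavin and the iron-sulfur clusters that take electrons from NADH to ubiquinone. Of these, Ndufs1, Ndufs3, Ndufs7, Ndufs8 and Ndufv1 differed by 0.02 to 0.04 log2, and Ndufv2 by -0.06. Of the 33 tested members of complex I, 28 were above 0, with a median of 0.033 and 0 calls. The largest differences were those of Ndufa4l2 and Ndufb2. Ndufa4l2 is a relative of Ndufa4 that low oxygen induces, and read 6.41, 6.28 and 5.99 in Fz4-/- samples, against 6.39, 6.17 and 6.71 in Fz4+/+ samples. Its difference of -0.20 ± 0.18 (SE) was widest in litter 3, where it was -0.72, against 0.02 and 0.11 in litters 1 and 2. Its partner Ndufa4, now counted with complex IV by many authors, had the smallest range of all tested members, at 0.068 log2 over the 6 arrays. Ndufb2, an accessory subunit, read 10.22, 10.37 and 10.52 in Fz4-/- samples, against 10.36, 9.93 and 10.51 in Fz4+/+ samples, and its genotypes overlapped.

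Complex II was the one complex with a median below 0, at -0.026 over its 4 genes, and 0 of them were called. Sdha, the flavoprotein, differed by -0.01, the iron-sulfur subunit Sdhb by -0.05, and the membrane anchors Sdhc and Sdhd by 0.01 and -0.04. Sdhb read 11.24, 11.29 and 11.50 in Fz4-/- samples, against 11.42, 11.18 and 11.60 in Fz4+/+ samples. Complex III had 6 of 8 genes above 0 and a median of 0.045. Uqcrfs1, the Rieske iron-sulfur protein, and the core proteins Uqcrc1 and Uqcrc2 differed by 0.0010, 0.0095 and -0.04. The small subunits Uqcrq and Uqcr11 differed most, by 0.12 ± 0.14 and 0.12 ± 0.13 (SE). Uqcr11 read 10.78, 10.74 and 10.74 in Fz4-/- samples, against 10.81, 10.42 and 10.66 in Fz4+/+ samples, and the lowest value was that of litter 2 in Fz4+/+.

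In complex V 14 of 17 genes were above 0, the median was 0.035 and there were 0 calls. Atp5a1 and Atp5b, the subunits that form the catalytic head, differed by 0.04 and 0.03, and Atp5c1, the rotating stalk, by 0.0008. Atp5b read 12.70, 12.72 and 12.76 in Fz4-/- samples, against 12.68, 12.67 and 12.74 in Fz4+/+ samples, a range of 0.097 log2 over all arrays. The genes Atp5g1, Atp5g2 and Atp5g3 encode the same mature subunit of the rotating ring and differed by 0.09, 0.10 and 0.02. Atp5g2 read 12.11, 12.07 and 12.06 in Fz4-/- samples, against 12.10, 11.80 and 12.03 in Fz4+/+ samples. Atp5d, a part of the central stalk, read 12.70, 12.75 and 12.90 in Fz4-/- samples, against 12.68, 12.46 and 12.93 in Fz4+/+ samples. In both, the genotypes overlapped, and the Fz4+/+ sample of litter 2 was lowest.

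Several probe sets of 1 gene did not always agree in sign at these small differences. Of 45 members with at least 2 tested probe sets, 21 had the same sign on all of them. Sizes could still differ among these, in examples named after their values were seen. Differences were 0.0021 on the brighter and 0.33 on the dimmer probe set of Cox7c. They were 0.0055 and 0.25 for Ndufa10, and 0.0008 and 0.19 for Atp5c1. In 3 genes, Atp5g2, Sdha and Uqcrq, opposite signs lay more than 0.2 log2 apart, with -0.15 and 0.10 for Atp5g2, -0.01 and 0.20 for Sdha, and -0.24 and 0.12 for Uqcrq.

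How the members vary from array to array was described next. A single array, the Fz4+/+ sample of litter 2, held the lowest value of 62 of the 80 members, and of 60 of the 75 tested ones (80.0%). It held the lowest value of 38.0% of all tested genes and of 32.2% of those with a mean of at least 10. In that array the median member lay 0.163 log2 below its own mean over the 6 arrays, where the median of all tested genes lay 0.106 below and that of genes with a mean of at least 10 lay 0.042 below. The pattern held in complex I (28 of 33 tested genes), complex III (7 of 8), complex IV (9 of 13) and complex V (15 of 17). In complex II Sdhb alone of the 4 genes was lowest there, and Sdhd, Uqcrb, Cox6a2, Cox8b and Cox8c were highest there. This depends on the probe set for Sdha, since 2 of its 3 tested probe sets were lowest there. For Sdhc and Sdhd it was 0 of 2 each. Over all 144 tested probe sets of the members, 108 were lowest in this array.

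**Figure D3:**
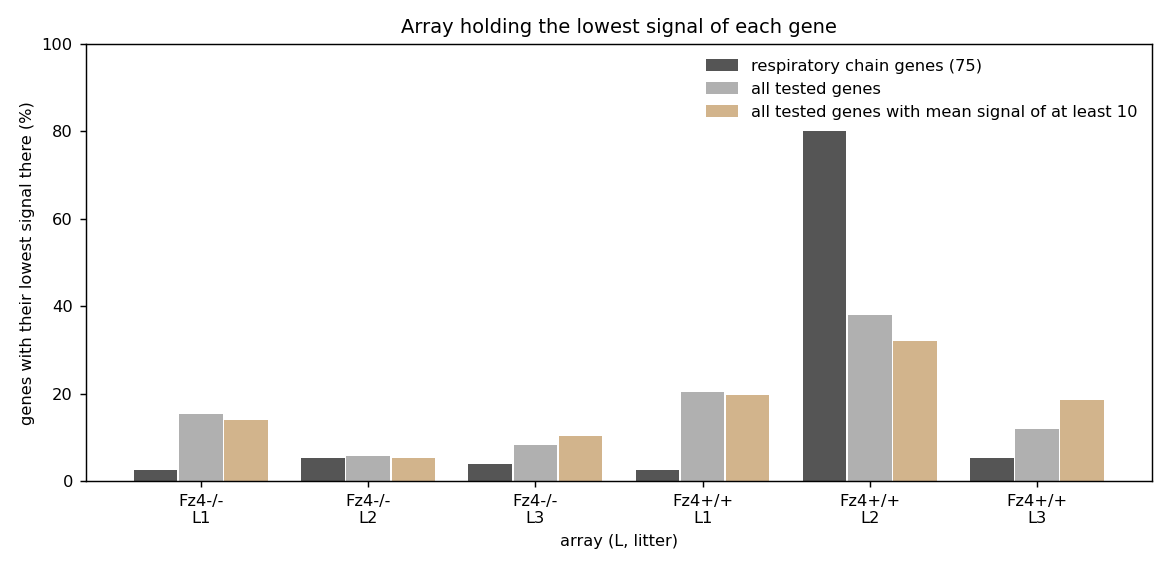
Share of genes, in percent (vertical axis, from 0), whose lowest signal was on each of the 6 arrays (horizontal axis, Fz4-/- then Fz4+/+, L for litter), for the 75 tested members, all tested genes and those with a mean signal of at least 10. The Fz4+/+ sample of litter 2 holds the lowest signal of 80.0% of the members, against 38.0% and 32.2% of the other 2 sets.

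The sign of the genotype differences changed with the arrays kept. Of the tested members 60 of 75 were above 0, against 63.5% of all tested genes and 58.9% of those with a mean of at least 10. In litter 2 alone 66 of 75 members were higher in Fz4-/-, with a median of 0.124 log2, against 25 of 75 with a median of -0.024 in litter 1 and 38 of 75 with a median of 0.005 in litter 3. All tested genes moved in a like way in litter 2, with 71.3% above 0 and a median of 0.115, and those with a mean of at least 10 had 65.9% above 0 and a median of 0.053. In litters 1 and 3 the medians of all tested genes were 0.0060 and -0.014. When the Fz4+/+ array of litter 2 was dropped, the members had a median of -0.040 and 21 of 75 were above 0. That array was singled out for its low values, so a lower median was bound to follow. Dropping the Fz4-/- array of litter 3 gave -0.0032 and 35 of 75, and dropping the Fz4+/+ array of that litter gave 0.087 and 67 of 75. The Fz4+/+ array of litter 2 had the highest mean of the striated muscle markers. Its 3' to 5' difference was 0.90 log2 for both actin and Gapdh. These controls read 0.86 and 0.86 on the Fz4-/- array of litter 1 and 0.76 and 0.90 on the Fz4+/+ array of litter 3. The part of muscle cells or of RNA quality in the lower signal was not tested.

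**Figure D4:**
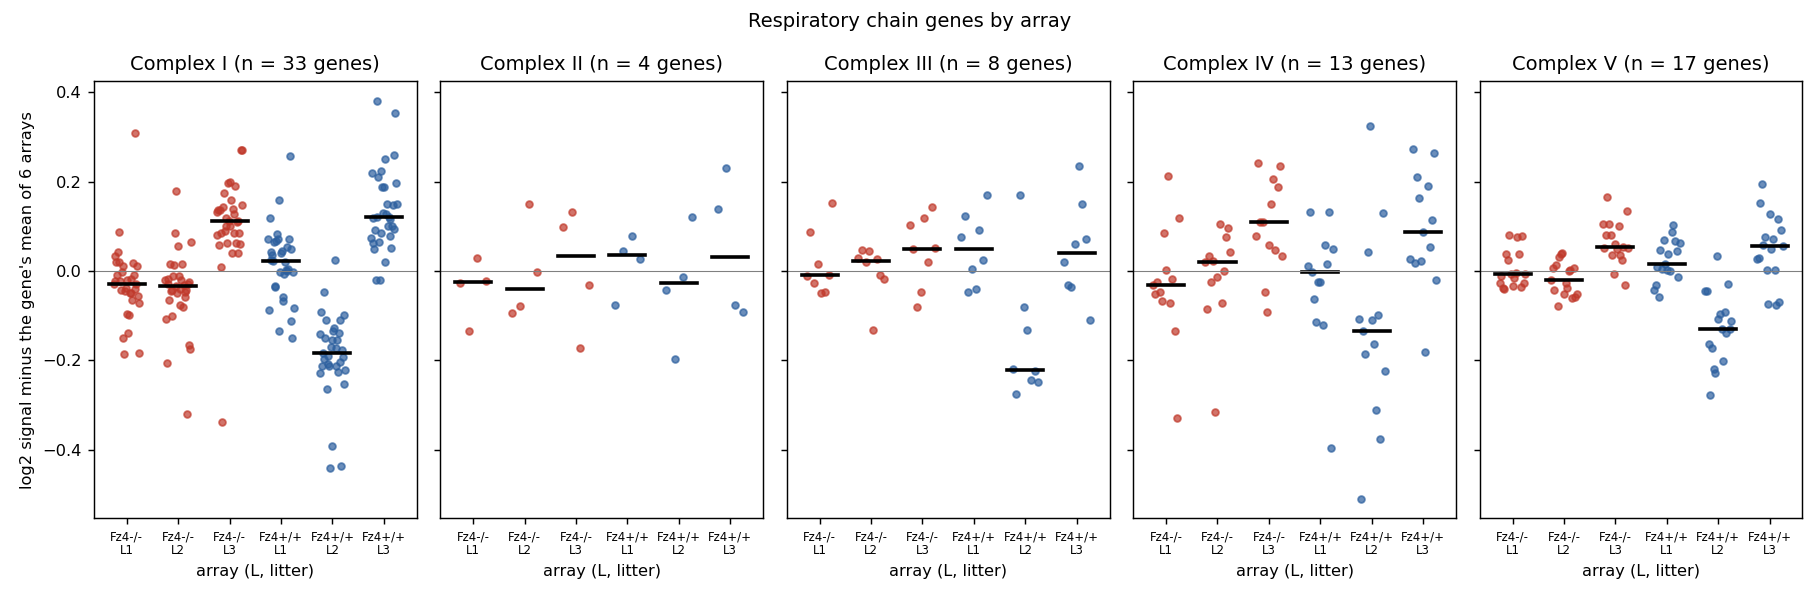
Log2 signal of each tested member minus its mean over the 6 arrays (vertical axis), by complex and array (horizontal axis, Fz4-/- in red, then Fz4+/+ in blue, L for litter), with a point for each gene and a black line at the median. The line is lowest for the Fz4+/+ sample of litter 2 in complexes I, III, IV and V, at -0.18, -0.22, -0.13 and -0.13, and higher in the litter 3 samples of both genotypes in complex I, at 0.11 and 0.12.

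Litters were compared with the genotype held fixed, and no member passed the threshold. In simulated data the litter test recovered 0% of shifts of 1 log2, so a count of 0 does not show that the litters were alike. limma's F test called 0 of the 75 members at an adjusted p under 0.05, as it called 0% of the 27028 probe sets, and adjusted p ran from 0.150 to 0.979 over the members. At an unadjusted p under 0.05 there were 3 of 75 members, Cox7c, Ndufs5 and Ndufv1, against 23.0% of all tested probe sets and 7.02% of tested genes with a mean of at least 10. Leaving out 1 sample moved these to between 0 and 6 members and between 6.52% and 33.1% of probe sets. The share was 6.52% on dropping the Fz4+/+ array of litter 3. No member was left on dropping the Fz4-/- array of litter 1, and 1 on dropping its Fz4+/+ littermate. The litter means of a member spanned 0.193 log2 in the median, against 0.296 for all tested genes and 0.188 for those with a mean of at least 10. Both samples of litter 3 lay above all 4 others in 46 of the 75 members (61.3%). The share was 41.8% of all tested genes, 33.9% of those with a mean of at least 10, and 36.9% of probe sets. The first principal component of all tested probe sets, 70.8% of the variance, was also highest in both litter 3 arrays, at 48.7 and 70.1. The other arrays were spread along it, from -48.9 in the Fz4+/+ to -0.096 in the Fz4-/- sample of litter 2. The mean of 9 macrophage markers was 7.73 in the Fz4-/- and 7.98 in the Fz4+/+ sample of litter 3, against 7.28 to 7.50 in the other samples, and 4 of the 9 had an unadjusted litter p under 0.05 in limma. Of the 9, Lyz2 and Cx3cr1 were not highest in litter 3, and the rest were highest in both its samples. The mean of 2 adrenal and gonad markers was also highest there, at 7.32 and 7.26, against 6.97 to 7.25 in the other samples. These 2 went opposite ways. Star was highest in both litter 3 samples, at 7.46 and 7.31, and Cyp21a1 was lowest in both, at 7.17 and 7.21. The other 6 adrenal and gonad markers measured were under the filter. The part of these cells in the members' values was not tested. Both litter 3 samples were highest for 25 of 33 tested genes of complex I, 2 of 4 of complex II, 2 of 8 of complex III, 7 of 13 of complex IV and 10 of 17 of complex V.

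Ndufv1, the subunit that binds NADH and the flavin, was highest in litter 3 in both genotypes. It read 11.58, 11.48 and 11.91 in the Fz4-/- samples of litters 1 to 3, against 11.49, 11.39 and 12.00 in the Fz4+/+ samples. Litter 3 lay 0.42 ± 0.12 (SE) above litter 1, at an unadjusted F test p of 0.0185 and an adjusted limma p of 0.170. Its other probe sets were also highest in both samples of litter 3. One read 11.55, 11.46 and 11.87 in Fz4-/- samples, against 11.44, 11.40 and 11.98 in Fz4+/+ samples. The other read 11.10, 11.05 and 11.35 in Fz4-/- samples, against 11.08, 11.00 and 11.42 in Fz4+/+ samples. Its neighbour in the complex, Ndufv2, read 11.80, 11.69 and 12.02 in Fz4-/- samples, against 11.87, 11.77 and 12.07 in Fz4+/+ samples, and was also highest in litter 3 in both genotypes.

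Cox7c, a small subunit of complex IV, was lowest in litter 1 in both genotypes. It read 8.77, 9.20 and 9.34 in Fz4-/- samples, against 8.71, 9.23 and 9.37 in Fz4+/+ samples, and litter 3 lay 0.61 ± 0.11 (SE) above litter 1. limma's unadjusted F test p was 0.00821 and its adjusted p 0.150. The second, dimmer probe set of Cox7c was low in litter 1 in Fz4-/- (5.87) and in litter 2 in Fz4+/+ (5.83). Ndufs5, an accessory subunit of complex I, was lowest in litter 2 in both genotypes, at 10.85, 10.23 and 10.58 in Fz4-/- samples against 10.80, 10.11 and 10.69 in Fz4+/+ samples. Its unadjusted F test p was 0.00931 and its adjusted limma p 0.152. In complex III Uqcrc2 read 12.47, 12.38 and 12.63 in Fz4-/- samples, against 12.48, 12.38 and 12.75 in Fz4+/+ samples, with an adjusted limma p of 0.275 in the litter test. Sdha read 11.86, 11.79 and 11.98 in Fz4-/- samples, against 11.81, 11.84 and 12.02 in Fz4+/+ samples, with an adjusted limma p of 0.450. The smallest litter p in complex V were those of Atp5d and Atp5e, at adjusted limma p of 0.343 and 0.418.

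**Figure D5:**
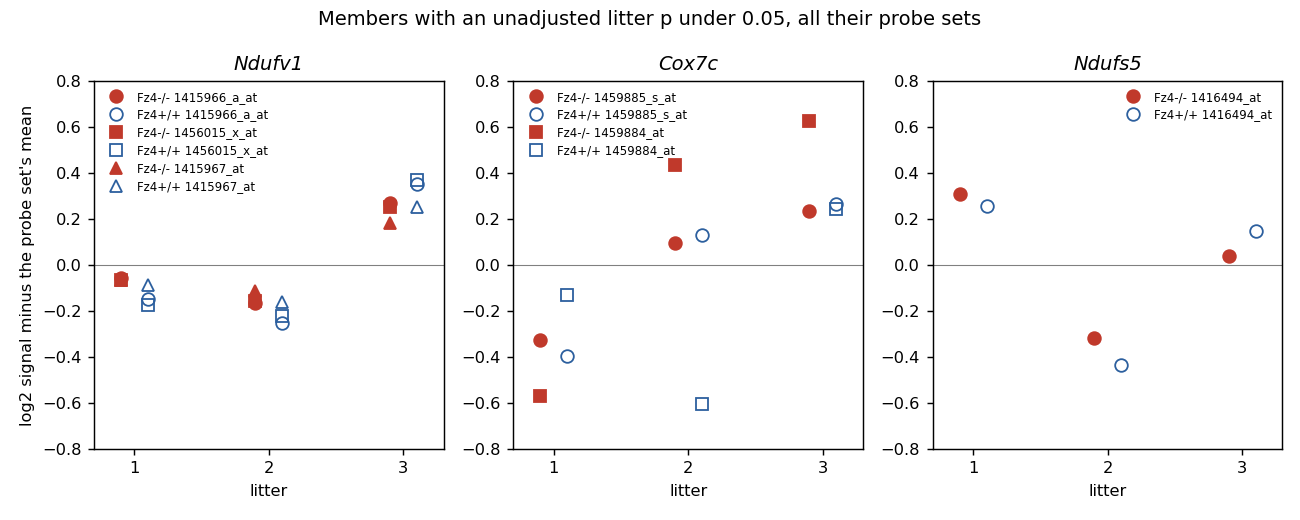
Log2 signal minus the mean of the probe set (vertical axis) in litters 1, 2 and 3 (horizontal axis) for all probe sets of Ndufv1, Cox7c and Ndufs5, with filled red symbols for Fz4-/- and open blue symbols for Fz4+/+ samples. Ndufv1 is highest in litter 3 on each of its probe sets in both genotypes, Cox7c on its brighter probe set is lowest in litter 1, and Ndufs5 is lowest in litter 2.

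Related mitochondrial genes were counted in 5 lists, with 0 genes at an adjusted or an unadjusted limma p under 0.05 between the genotypes in each. Of all tested probe sets, 0% and 0.884% were. Without overlap, 1 gene was higher and 1 lower of 76 in the mitochondrial ribosome, and 1 was lower of 17 in the citric acid cycle. Among 23 biogenesis regulators 1 was lower, and the remaining lists had 0. Over all tested probe sets 2.43% were higher without overlap and 1.21% lower. Of 76 genes of the mitochondrial ribosome, which translates the subunits encoded in mitochondrial DNA, 54 were above 0 and 22 below, with a median of 0.051 log2, and 62 were lowest in the Fz4+/+ sample of litter 2. Mrps16 read 11.07, 11.11 and 11.10 in Fz4-/- samples, against 11.06, 10.73 and 11.05 in Fz4+/+ samples, without overlap. Mrpl11, named after its values were seen as the ribosomal gene that was lower without overlap, read 12.13, 12.14 and 12.08 in Fz4-/- samples, against 12.21, 12.18 and 12.22 in Fz4+/+ samples. Of 45 tested assembly factors 36 were above 0, with a median of 0.059, and 29 were lowest in that array. Bcs1l, which inserts the Rieske protein into complex III, read 9.40, 9.45 and 9.52 in Fz4-/- samples, against 9.18, 9.02 and 9.43 in Fz4+/+ samples, a difference of 0.25 ± 0.13 (SE). Surf1, an assembly factor of complex IV, differed by 0.14 ± 0.13 (SE).

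Of 19 electron carrier and ubiquinone genes outside the rule, 14 were above 0, with a median of 0.055, and 13 were lowest in the Fz4+/+ sample of litter 2. Cycs, which encodes cytochrome c, differed by 0.07 ± 0.12 (SE), and Coq4, needed for ubiquinone synthesis, by 0.16 ± 0.11. For the citric acid cycle, 7 of 17 genes were above 0, the median was -0.0023 and 7 were lowest in that array. Suclg2, a subunit of succinyl-CoA ligase, differed by -0.10 ± 0.09 (SE), without overlap, and Pdhb, of pyruvate dehydrogenase, by 0.11 ± 0.14. Of 23 tested regulators of mitochondrial biogenesis 16 were above 0, with a median of 0.058, and 8 were lowest in that array. Ppargc1b, a coactivator of this program, read 7.95, 7.84 and 7.87 in Fz4-/- samples, against 8.05, 8.06 and 8.07 in Fz4+/+ samples. Its values did not overlap, at a difference of -0.17 ± 0.09 (SE), an unadjusted p of 0.116 and an adjusted limma p of 0.999988. The brown fat markers Ucp1 and Cidea were under the filter in the mean of all arrays, at 5.44 and 3.89.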

How the data were processed

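The data are 6 arrays of total RNA from whole kidneys. The authors used RMA, per the submitters' processing notes (no version), and the deposited values are log2 signals per probe set, used here without further normalisation. RMA brings the arrays to a common distribution, which hides any change in the amount of RNA per cell. Array medians lay between 6.62 and 6.74 log2. Precision is limited by having 6 arrays.

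Probe sets were named from the platform annotation (34958 with 1 gene, 932 with several, 9211 with none), and all 80 members matched RefSeq genes of GRCm38.p6 by gene number. One subunit gene is not reported here. After 64 control probe sets were left out, 27028 with a mean at or above the 40th percentile were tested with limma 3.58.1 in R 4.3.3 (lmFit, eBayes, two-sided, Benjamini-Hochberg over all of them, threshold 0.05). The genotype fit had no other term. The litter test was an F test in a fit of genotype and litter. Differences are Fz4-/- minus Fz4+/+. Single control values were compared by exact permutation, which cannot go below 0.1 here.

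Named members were those without overlap, the largest differences and smallest litter p in each complex, tissue isoforms, catalytic subunits, and genes whose probe sets disagreed. Related lists gave up to 4 examples of smallest p. Members, lists and rules were chosen with earlier results of these data known, and the NRF1 letters after a form 1 letter longer had been counted. Replicate numbers are litters in the labels, so they pair the samples. Across probe sets, same-litter samples deviated from their genotype means with correlations of 0.577, 0.178 and 0.809 in litters 1 to 3. Both tests were tried on simulated probe sets, 50 at each size of shift. Their noise was drawn from the spread left after genotype and litter were fitted. The genotype test, which has no litter term, thus met no litter differences there, unlike in the real arrays. The litter test recovered 0%, 0%, 38% and 72% of shifts of 0.5, 1, 2 and 4 log2. The genotype test recovered 20%, 64%, 94% and 96% of them. In the real data it did not call Fzd4 at -6.16 log2, so these shares may be too high for the real arrays. Alternatives covered the filter, normalisation, array weights, the litter block, the probe set rule and each sample left out.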

Additional observations from a re-analysis of the deposited data

How the results depend on the processing

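The count of probe sets called between the genotypes was 0 under every alternative but array weights, which called 2 and gave the Fz4-/- sample of litter 2 a weight of 8.80. With a replicate block for the litter, the pairing in the labels, it was again 0, which changed no call and left the median over the members at 0.033. Leaving out each sample in turn gave 0 calls each time and medians over the members from -0.040 to 0.087. The other settings gave medians from -0.015 with array weights, where 29 of 75 members were above 0, to 0.053 without litter 3. In the litter test the count of 0 became 3 with the filter at the 60th percentile and 1 with the mean of all probe sets of a gene. It ranged from 0 to 1507 when each sample was left out, with 1507 on dropping the Fz4-/- array of litter 2 and 326 on dropping its Fz4+/+ littermate. Of the members 0 were called in either test under any of these alternatives. Chosen after the data were seen, quantile normalisation and averaging over probe sets left 59 and 57 of 75 members lowest in the Fz4+/+ sample of litter 2 (60 as deposited). Both litter 3 samples lay above all others in 42 of 75 under each of these (46 as deposited), and in 46 to 52 without 1 sample of litters 1 or 2. The background of genes with a mean of at least 10 was also added then. Intervals reached past 0.5 log2 for 11 members, and for 6 with the block.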
